A study of Mus musculus with 2 samples.

Results

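Prohormone processing genes were described in islets of 2-week-old mice, by 6 genes chosen by name: Pcsk1, Pcsk2, Pcsk1n, Scg5, Cpe and Pam. These were 6 of the 31053 genes listed in the files, and all 6 were measured in every class of barcode described here. Islets were taken from wild type (WT) mice and from Npc1-/- mice, which lack the lysosomal cholesterol transporter NPC1 in the whole body, both on a C57BL/6J background and born as littermates of heterozygous crosses. Each genotype was 1 single-cell RNA library made from the pooled islets of 3 female mice, so no test between genotypes could be made and no p-value is given. Bracketed ranges are exact 95% intervals of the counting error alone, and the spread from mouse to mouse is not in them.

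Peptide hormones are made as longer precursors that are cut inside secretory granules. The proteases encoded by Pcsk1 and Pcsk2 cut the precursors after pairs of basic residues, and both act on proinsulin, whereas glucagon is released from proglucagon by the Pcsk2 product. Pcsk1n encodes proSAAS, an inhibitor of the Pcsk1 protease, and Scg5 encodes the chaperone needed for the Pcsk2 protease to mature. Cpe encodes the carboxypeptidase that trims the basic residues left after cutting, and Pam encodes the enzyme that amidates peptide ends, as in amylin, pancreatic polypeptide and peptide YY.

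Pcsk1 differed most between classes among the 6 genes and Pcsk2 was high in all endocrine classes, so their promoters are shown. The sequences were those of RefSeq on GRCm38.p6, from 250 bases before to 50 bases after the transcription start, written 5′ to 3′ on the strand of the gene. Capitals mark the letters TGACG (a part of the cAMP response element) and GGGCGG (the GC box) on either strand. RefSeq promoters were matched for 5 of the 6 genes. Pam had 2 entries, of which only the first was searched.
Pcsk1, chr13:75089607-75089906, plus strand: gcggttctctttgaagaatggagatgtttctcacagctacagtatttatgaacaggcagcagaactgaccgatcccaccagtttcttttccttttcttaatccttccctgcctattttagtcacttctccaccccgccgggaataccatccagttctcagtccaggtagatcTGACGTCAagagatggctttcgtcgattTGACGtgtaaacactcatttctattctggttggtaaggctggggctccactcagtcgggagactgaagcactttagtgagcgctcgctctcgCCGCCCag
Pcsk2, chr2:143545883-143546182, plus strand: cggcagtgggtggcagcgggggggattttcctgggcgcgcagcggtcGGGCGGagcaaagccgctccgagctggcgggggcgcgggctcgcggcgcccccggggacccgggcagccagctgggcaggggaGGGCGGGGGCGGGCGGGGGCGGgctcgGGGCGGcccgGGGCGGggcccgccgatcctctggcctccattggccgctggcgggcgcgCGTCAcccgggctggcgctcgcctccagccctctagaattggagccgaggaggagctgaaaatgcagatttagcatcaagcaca
The full cAMP response element, TGACGTCA, began 78 bases before the RefSeq start of Pcsk1 and holds TGACG on both strands. It was found in 1.88% of the 27025 promoters of the same length, and in none of the promoters of Pcsk2, Pcsk1n, Scg5 and Pam. TGACG on either strand was found at 3 positions for Pcsk1, of which 2 lie in the full element, at 3 for Scg5, at 1 for Pcsk2 and at none for Pcsk1n and Pam, and 21% of all promoters held it. GGGCGG was found at 7 positions for Pcsk2 against 1 for Pcsk1, and 35.9% of all promoters held it. GC made up 76.3% of the Pcsk2 window, 76.3% of the Pam window and 49.3% of the Pcsk1 window, with a median of 52.7% over all promoters. The TATA box letters TATAAA, held by 14.2% of promoters, were in none of the 5 windows. These matches describe letters and were not tested for binding.

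The genes lie on separate chromosomes except for Pcsk2 and Scg5. In the GRCm38 annotation Pcsk1 spans chr13:75089826-75134861 and Pcsk2 spans chr2:143546156-143816285, both on the plus strand. Scg5 spans chr2:113776362-113829121 on the minus strand and Pcsk1n spans chrX:7919822-7924410 on the plus strand. Cpe spans chr8:64592542-64693054 and Pam spans chr1:97795114-98095646, both on the minus strand. For Pcsk1, Pcsk2 and Scg5 the start in this annotation is not the RefSeq start used for the promoter windows.

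After filtering, 4628 of 8569 WT barcodes and 4269 of 7646 Npc1-/- barcodes were kept, with a median of 18905 and 21381 unique molecular identifiers (UMIs, counts of distinct captured RNA molecules). Of these, 3 kept barcodes were shared by both libraries. Over the kept barcodes Npc1 was at 8.40 CPM (UMIs of a gene per 1000000 UMIs of the sum) for WT against 4.14 CPM for Npc1-/-, so its 3′ reads were reduced and not absent in the library labelled Npc1-/-. Each barcode was put in a class by its leading hormone, which had to take at least 10% of its UMIs, and otherwise as endothelial or stellate by marker genes. WT and Npc1-/- held 1833 and 1826 β barcodes led by Ins1 and Ins2, 1048 and 857 α barcodes led by Gcg, 189 and 141 δ barcodes led by Sst, and 411 and 442 PP barcodes led by Ppy and Pyy. They also held 439 and 445 endothelial and 312 and 336 stellate barcodes, while 396 and 222 barcodes had no class.

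The β, α, endothelial and stellate classes carried their own markers, but the δ and PP classes were not cleanly apart. Ppy and Pyy took 11.1% and 11.8% of the UMIs of δ barcodes in WT and Npc1-/-. Conversely, 132 WT and 150 Npc1-/- PP barcodes held at least 5% Sst, and in these Hhex, a δ-cell transcription factor, stood at 355 and 306 CPM against 5.02 and 9.64 CPM in the PP barcodes with under 1% Sst. The PP class therefore mixed barcodes with and without δ markers, and values by Sst share are given below for Pcsk1 and Pam. The other genes differed by Sst share too, WT first. With under 1% Sst, Pcsk1n was at 4176 and 4533 CPM, against 3375 and 3244 CPM with at least 5%. Scg5 was at 1371 and 1406 against 1054 and 1119 CPM, and Cpe at 1232 and 1216 against 981 and 939 CPM. Pcsk2 went the other way, at 1655 and 1619 against 1770 and 1710 CPM. Of the PP markers used here, Aqp3 was near 0 in every class, and the others did not mark the PP class in both libraries. Etv1 was at 229 and 220 CPM in PP but at 375 and 313 CPM in α barcodes. Fxyd2 was at 9.08 and 5.45 CPM in PP but at 23.6 and 14.0 CPM in δ barcodes. Tspan8 was at 796 and 661 CPM in PP and at 644 and 672 CPM in δ barcodes.

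**Figure D1:**
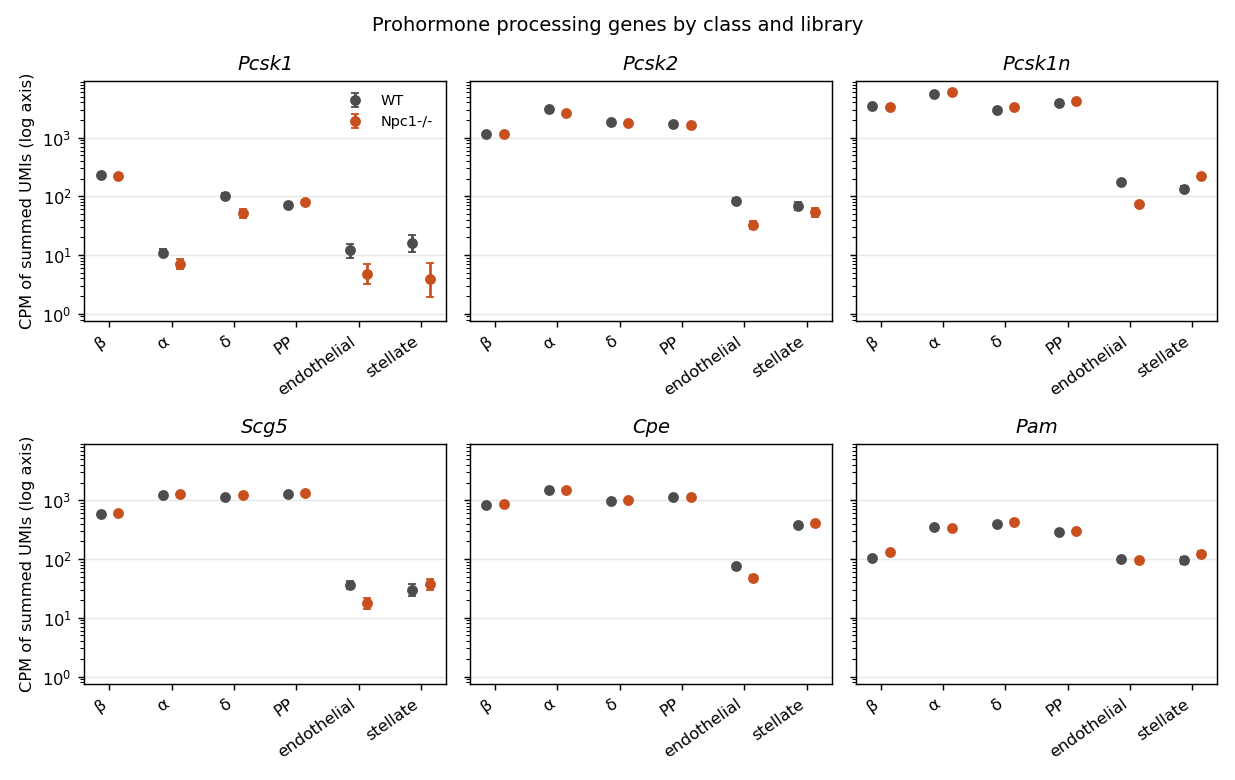
Level of each gene by class and library, in CPM of the UMIs summed over the barcodes of a class (log axis), with WT in grey and Npc1-/- in orange and bars for exact 95% counting intervals. Pcsk1 sits at 233 and 221 CPM in β barcodes and at 11.0 and 7.11 CPM in α barcodes, next to the endothelial points, while the other 5 genes stand above the endothelial level in all 4 endocrine classes except Pam, whose β points are near it.

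Pcsk1 was a β-enriched gene in these islets and, as CPM of all UMIs, was in α barcodes near its level in endothelial barcodes, which free RNA can reach. The level in β barcodes was 233 CPM (229 to 237) for WT against 221 CPM (217 to 225) for Npc1-/-. In α barcodes it stood at 11.0 CPM (9.57 to 12.7) and 7.11 CPM (5.90 to 8.49). The endothelial barcodes, which should lack the gene, held 12.1 CPM (9.07 to 15.7) and 4.84 CPM (3.19 to 7.04), so the α and endothelial intervals overlapped in each library. Stellate barcodes held 15.8 CPM and 3.96 CPM.

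Between these lay the δ and PP barcodes. Pcsk1 in δ barcodes was at 100.6 CPM (89.0 to 113) for WT against 52.2 CPM (43.5 to 62.1) for Npc1-/-, and at 71.0 CPM (65.4 to 77.1) and 81.5 CPM (75.8 to 87.5) in PP barcodes. The order of the 2 classes was thus turned between libraries. In PP barcodes with under 1% Sst WT held 76.5 CPM and Npc1-/- 95.02 CPM, and in those with at least 5% Sst they held 56.4 and 49.6 CPM. Both parts lay above the endothelial level and below the β level.

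The share of barcodes with a Pcsk1 UMI gave the same picture once every barcode was thinned to 5000 UMIs. In β barcodes it was 67.3% (65.1 to 69.5) for WT, over 1807 barcodes, against 63.9% (61.6 to 66.1) for Npc1-/-, over 1804. It was 5.23% (3.94 to 6.79) and 3.33% (2.22 to 4.78) in α barcodes, against 6.89% (4.59 to 9.86) and 3.15% (1.69 to 5.32) in endothelial barcodes, so the α share was not distinguishable from background at this depth. In δ barcodes it was 35.4% and 24.5%, and in PP barcodes 23.3% and 28.8%. Without thinning the β shares were 97.2% and 96.3% and the α shares 14.5% and 9.57%, at a median of 30417 and 30094 UMIs per β barcode and 17143.5 and 19110 UMIs per α barcode. The unthinned endothelial shares were 11.4% and 5.84% at a median of 7835 and 10372 UMIs. Barcodes left out for holding under 5000 UMIs numbered 26 and 22 in β, 35 and 16 in α, 8 and 2 in δ, 7 and 12 in PP and 47 and 32 in the endothelial class.

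The Pcsk1 counts were set beside the insulin UMIs of the same barcodes. β barcodes held 0.449 Pcsk1 UMIs per 1000 insulin UMIs in both libraries. At that ratio the insulin UMIs of α barcodes go with 89.2 and 56.8 Pcsk1 UMIs, against 204 and 122 counted. Those of δ barcodes go with 15.0 and 8.52, against 273 and 127 counted, and those of PP barcodes 45.2 and 59.1, against 579 and 762. Counted over that number was 18.2 and 14.9 in δ, 12.8 and 12.9 in PP and 2.29 and 2.15 in α barcodes. It was 1.69 and 1.23 in endothelial and 1.66 and 0.605 in stellate barcodes, and whether free RNA keeps the β ratio was not tested.

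Pcsk2 was high in every endocrine class and highest in α barcodes. It was at 1139.9 and 1174 CPM in the β barcodes of WT and Npc1-/-, and at 3109 CPM (3083 to 3134) and 2672 CPM (2648 to 2696) in α barcodes. In δ barcodes it was at 1827 and 1799 CPM and in PP barcodes at 1691 and 1653 CPM. Endothelial barcodes held 84.5 and 32.4 CPM. A Pcsk2 UMI was found in 99.8% to 100% of barcodes of each endocrine class without thinning. Hormone genes took 57.8% and 55.8% of the UMIs of β barcodes but 34.9% and 34.7% of those of α barcodes. With hormone genes left out of the total, Pcsk2 was at 2702 and 2656 CPM in β and 4778 and 4092 CPM in α barcodes, and over all 4 classes and both libraries its highest value was 1.80 times its lowest. The same span was 50.7 times for Pcsk1, whose lowest values were those of α barcodes. On that scale α values lay above endothelial ones, at 16.96 against 12.33 CPM in WT and 10.88 against 4.893 CPM in Npc1-/-.

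**Figure D2:**
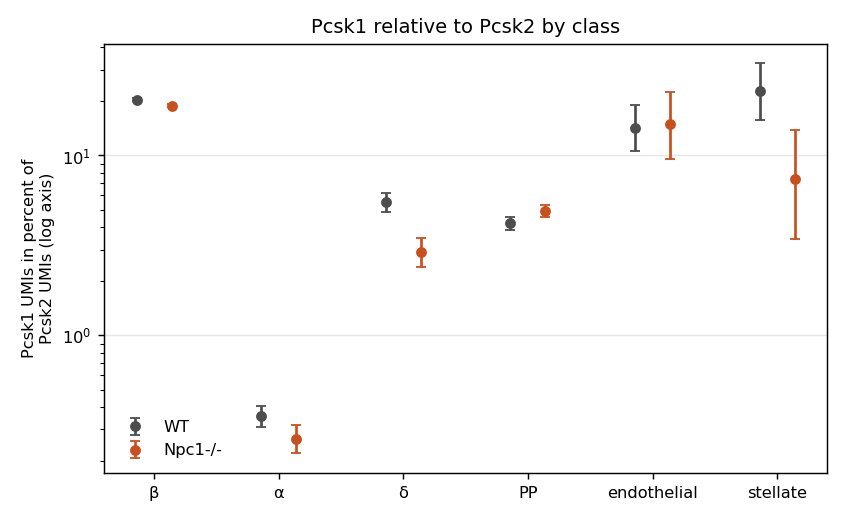
Pcsk1 UMIs in percent of Pcsk2 UMIs by class (log axis), WT in grey and Npc1-/- in orange, with 95% counting intervals. The β points sit at 20.4% and 18.8% and the α points at 0.355% and 0.266%. The endothelial points sit at 14.3% and 14.9%, below the β points, and the stellate points at 22.8% and 7.35%.

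The ratio of the 2 protease genes does not depend on the library total or on the hormone share, and was compared between classes. Pcsk1 UMIs were 20.4% (20.04 to 20.8) of Pcsk2 UMIs in WT and 18.8% (18.5 to 19.2) in Npc1-/- β barcodes. They were 0.355% (0.308 to 0.407) and 0.266% (0.221 to 0.318) in α barcodes, where Pcsk1 was near its endothelial level as CPM of all UMIs. In δ barcodes they were 5.50% (4.85 to 6.22) and 2.90% (2.41 to 3.46), and in PP barcodes 4.20% (3.86 to 4.57) and 4.93% (4.58 to 5.30). The 4 endocrine classes thus fell into a high ratio in β, a middle ratio in δ and PP and a low ratio in α in both libraries. Endothelial barcodes, with 54 and 27 Pcsk1 UMIs, were at 14.3% (10.5 to 19.0) and 14.9% (9.57 to 22.4). Stellate barcodes, with 39 and 10 Pcsk1 UMIs, were at 22.8% (15.7 to 32.5) and 7.35% (3.45 to 13.9).

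The partner proteins of the proteases did not follow the same pattern as Pcsk1. Pcsk1n was at 3487 and 3358 CPM in β barcodes, WT first, and at 5541 and 5968 CPM in α barcodes, where Pcsk1 was low. It was lowest among endocrine classes in δ barcodes, at 2929.7 and 3277 CPM, and stood at 3948 and 4173.5 CPM in PP barcodes. Endothelial barcodes held 174 and 72.7 CPM. With hormone genes left out of the total, Pcsk1n was at 8265 and 7597 CPM in β, 8517 and 9139.7 CPM in α, 4335 and 4860.5 CPM in δ and 6829 and 6975 CPM in PP barcodes. On that scale WT β and α levels were close and PP lay below β, so the order of these classes depended on the scale, while δ was lowest on both. The gene of the inhibitor was therefore present in α barcodes while the gene of the protease it inhibits was far below its β level there on both scales.

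Scg5 was lowest in β barcodes, at 575 and 614 CPM. It was at 1219 and 1263 CPM in α, 1131.5 and 1214 CPM in δ and 1282 and 1320.4 CPM in PP barcodes, which differed from one another by less than from β. Without hormone genes in the total the β level of 1362 and 1389 CPM was still the lowest, and the PP level of 2218 and 2207 CPM the highest. On that scale α was at 1874 and 1934 CPM and δ at 1674 and 1801 CPM, and in WT δ lay nearer to β than to PP.

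Cpe was at 831 and 862 CPM in β, 1515 and 1487 CPM in α, 986 and 1017 CPM in δ and 1159 and 1132 CPM in PP barcodes. With hormone genes left out of the total it was at 1971 and 1951 CPM in β and 2329 and 2277 CPM in α barcodes. It was then at 1459 and 1509 CPM in δ and 2005 and 1892 CPM in PP barcodes. On that scale δ and not β was lowest, and β was close to PP. The values that follow are CPM of all UMIs. The enzyme gene was also found in stellate barcodes, at 376 CPM (352 to 401) in WT and 406 CPM (382 to 432) in Npc1-/-, against 75.1 and 47.3 CPM in endothelial barcodes. A Cpe UMI was present in 78.9% of 266 WT and 78.8% of 274 Npc1-/- stellate barcodes after thinning, against 24.5% and 19.9% of endothelial barcodes. At the β ratio of Cpe to insulin, the insulin UMIs of stellate barcodes go with 83.9 and 64.4 Cpe UMIs, against 927 and 1024 counted. Cpe was the only one of the 6 genes whose stellate level was more than 3 times its endothelial level in both libraries, at 5.01 and 8.58 times.

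Pam was lowest in β barcodes among the endocrine classes. It was at 103 CPM (100.1 to 105) in WT and 133 CPM (130 to 136) in Npc1-/- β barcodes, at 345 and 336 CPM in α, 394 and 431 CPM in δ and 289.7 and 305.5 CPM in PP barcodes. Endothelial barcodes held 98.8 and 96.9 CPM and stellate barcodes 95.4 and 121 CPM. These non-endocrine counts were 22.7 to 41.1 times the number at the β ratio of Pam to insulin. After thinning, 39.2% and 47.2% of β and 80.6% and 78.4% of α barcodes had a Pam UMI, against 38.0% and 33.7% of endothelial barcodes. With hormone genes left out of the total, Pam was at 243 and 300 CPM in β barcodes, still the lowest endocrine class. On that scale endothelial barcodes held 101 and 98.0 CPM, so β lay above them. Thinned to 2500 UMIs without hormone genes, 44.2% and 49.2% of β barcodes had a Pam UMI, against 24.1% and 21.8% of endothelial barcodes. As CPM of all UMIs, the PP values differed by Sst share. In PP barcodes with at least 5% Sst, Pam was at 371 and 395 CPM, close to δ, and in those with under 1% Sst at 258 and 266 CPM.

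Class differences were then expressed as log2 ratios over β inside each library, relative to the median of genes with at least 5 CPM in either class. That median gene was 0.55 and 0.45 higher in α than in β on the log2 scale in WT and Npc1-/-, 0.74 and 0.64 higher in δ and 0.46 and 0.40 higher in PP. A gene was counted when it lay at least 2-fold from the median gene in the same direction in both libraries. In α, 1 of 6 genes was counted, where 11.5% of the 9788 genes compared were. This was Pcsk1, at -4.95 (-5.16 to -4.75) in WT and -5.40 (-5.68 to -5.15) in Npc1-/-, with an α level near the endothelial one as CPM of all UMIs. In δ, 2 of 6 were counted, where 11.6% of genes were. Pcsk1 was at -1.95 and -2.71 and Pam at 1.20 and 1.06. In PP, 1 of 6 was counted, where 9.1% of genes were, again Pcsk1, at -2.17 and -1.84. Pam just missed the limit in 1 library each, at 1.20 and 0.89 in α and at 1.04 and 0.80 in PP.

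The remaining genes stayed within 2-fold of the median gene. Pcsk2 was at 0.90 and 0.74 in α but at -0.06 and -0.02 in δ and 0.11 and 0.09 in PP. Scg5 was at 0.53 and 0.59 in α, 0.24 and 0.35 in δ and 0.70 and 0.70 in PP. Pcsk1n was at 0.12 and 0.38 in α, -0.99 and -0.67 in δ, near the limit in WT, and -0.28 and -0.09 in PP, where it was 0.18 and 0.31 when not taken relative to the median gene. Cpe was at 0.32 and 0.34 in α and -0.49 and -0.40 in δ, and the δ value became 0.25 and 0.24 when not taken relative to the median gene. The median of the 6 genes was 0.44 in α, -0.24 in δ and 0.05 in PP over both libraries, against 0 for all genes by construction.

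**Figure D3:**
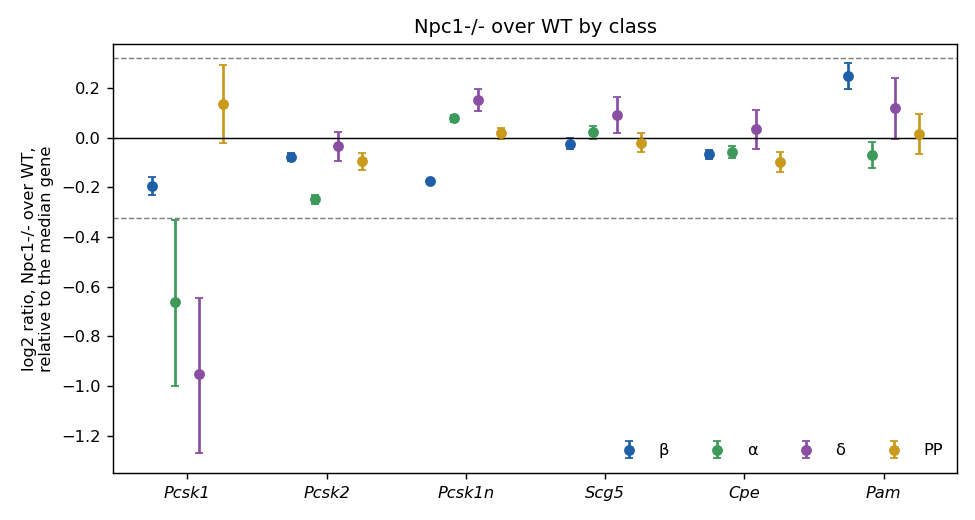
Log2 ratio of Npc1-/- over WT for each gene, relative to the median gene, in β (blue), α (green), δ (purple) and PP (yellow) barcodes, with 95% counting intervals and dashed lines 0.32 above and below 0. Only Pcsk1 in α, at -0.66, and in δ, at -0.95, lies beyond the lines, and in β the largest value is that of Pam, at 0.25.

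Between genotypes a gene was counted when it lay at least 0.32 from the median gene on the log2 scale, in either direction. In β barcodes none of the 6 genes did, where 13.8% of the 8858 genes compared did. The median gene was 0.12 higher in Npc1-/- on the log2 scale. Pam was the only one above the median gene, at 0.25 (0.20 to 0.30), from 5629 UMIs in WT and 7181 in Npc1-/-. Without taking the ratio relative to the median gene it was at 0.37, past the limit, where 20.6% of genes were. Pcsk1 was at -0.19 (-0.23 to -0.16) and Pcsk1n at -0.17 (-0.18 to -0.16). Pcsk2 was at -0.08, Cpe at -0.07 and Scg5 at -0.02, and these 3 were above 0 when not taken relative to the median gene. Insulin UMIs made up 51.9% of β UMIs in WT and 49.3% in Npc1-/-.

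In α barcodes 1 of 6 genes was past this limit, where 8.7% of genes were. This was Pcsk1, at -0.66 (-0.999 to -0.333), from 204 and 122 UMIs. As CPM of all UMIs, its WT level lay inside the endothelial interval of its library and its Npc1-/- level just above its own. Endothelial Pcsk1 also differed between libraries, at 12.1 and 4.84 CPM, and insulin made up 1.07% of α UMIs in WT and 0.736% in Npc1-/-. Pcsk2 in α barcodes, which had far more UMIs behind it, was at -0.25 (-0.27 to -0.23), from 3109 to 2672 CPM. The median over barcodes was 3116 CPM for WT against 2624 CPM for Npc1-/-, with quartiles of 2570 to 3662 CPM and 2116 to 3179 CPM, so the 2 spreads overlapped. Pcsk1n was at 0.08 and Scg5 at 0.02.

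In δ barcodes 1 of 6 genes was past the limit, where 31.3% of genes were, and these sums rest on 189 and 141 barcodes. It was again Pcsk1, at -0.95 (-1.27 to -0.65), from 273 UMIs in WT and 127 in Npc1-/-. The 5 barcodes with the most Pcsk1 held 15.4% and 22.0% of these UMIs, and without them the levels were 87.6 and 43.2 CPM. With the PP barcodes of at least 5% Sst put into δ the value was -0.67, and in those PP barcodes on their own the levels of 56.4 CPM (46.7 to 67.6) and 49.6 CPM (41.6 to 58.7) had overlapping intervals. In the thinned barcodes the shares of 35.4% (28.4 to 42.8) and 24.5% (17.6 to 32.5) overlapped too. Insulin was at 1.23% and 0.780% of δ UMIs, which at the β ratio goes with the 15.0 and 8.52 Pcsk1 UMIs given above. The 4 δ markers summed to 7818 CPM in WT and 6207 CPM in Npc1-/-, with Hhex at 396 and 343 CPM, and the 6 α markers to 165 and 418 CPM, of which Ttr was 131 and 375 CPM. The 4 macrophage markers summed to 169.8 and 232 CPM, of which C1qa alone was 169 and 182 CPM. C1qb was at 0 and 35.4, Cd68 at 0.368 and 7.81 and Lyz2 at 0.737 and 6.58 CPM. The 8 stellate markers summed to 92.8 and 87.6 CPM and did not move together. Among them Rgs5 was at 11.8 and 55.9 CPM, but Col3a1 at 37.6 and 6.99, Col1a1 at 18.0 and 0 and Col1a2 at 19.2 and 6.17 CPM. Their part in the Pcsk1 values was not tested.

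In PP barcodes no gene was past the limit, where 17.7% of genes were. Pcsk1 was at 0.14 (-0.02 to 0.29), Cpe and Pcsk2 were at -0.10 and -0.09, and Pam, Pcsk1n and Scg5 lay within 0.02 of the median gene. Across the 4 classes the values of the 6 genes ran from -0.95 to 0.25, and outside Pcsk1 from -0.25 to 0.25. Their median was -0.07 in β, -0.06 in α, 0.06 in δ and -0.0025 in PP, against 0 for all genes by construction.

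**Figure D4:**
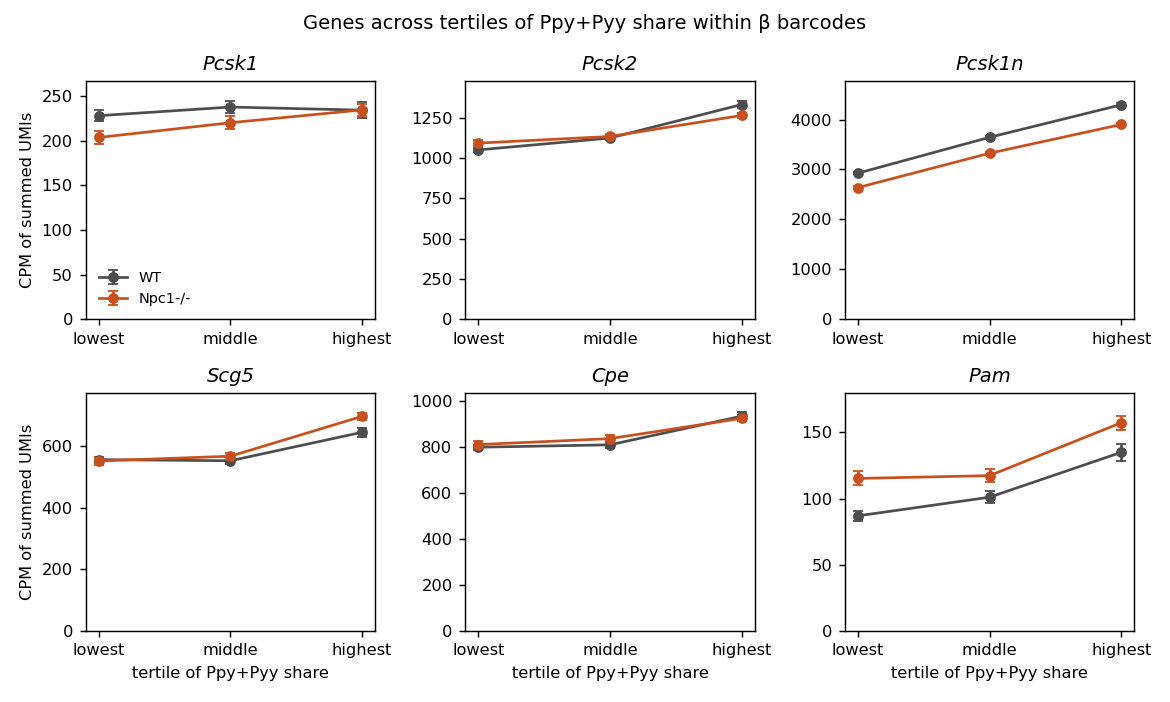
Level of each gene in CPM of summed UMIs in β barcodes split into tertiles by their share of Ppy and Pyy UMIs (lowest, middle, highest), WT in grey and Npc1-/- in orange, with exact 95% counting intervals. Pcsk1n runs from 2925 to 4296 CPM for WT and from 2636 to 3902 CPM for Npc1-/-, Pam is higher in Npc1-/- in each tertile, and Pcsk1 stays between 204 and 238 CPM.

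β barcodes in these young islets differ in how much Ppy and Pyy they carry, and the genes differed in how they went with it. β barcodes of both libraries were ranked by their Ppy and Pyy share and split into tertiles, below 0.186%, up to 1.13% and above that. WT held 733, 654 and 446 barcodes in the lowest, middle and highest tertile and Npc1-/- held 486, 566 and 774. The highest tertile reached a share of 26.0%, and 103 WT and 197 Npc1-/- β barcodes held a second hormone group of at least 5%. Barcodes of mixed cells can be among these, and their part in the tertile values was not tested. Pcsk1n stood at 2925, 3644 and 4296 CPM in the WT tertiles and at 2636, 3325 and 3902 CPM in the Npc1-/- tertiles, the lowest to highest in that order in both libraries. Pam stood at 86.9, 101 and 135 CPM in WT and 115, 117 and 157 CPM in Npc1-/-. Pcsk1 was at 228, 238 and 234 CPM in WT and 204, 220.2 and 235 CPM in Npc1-/-, with no order common to both libraries. Pcsk2 went from 1050.4 to 1332 CPM and from 1093 to 1264 CPM between the lowest and the highest tertile. The mature β-cell genes Ucn3 and Mafa went the other way, Ucn3 from 289 to 84.9 CPM for WT and from 252 to 65.6 CPM for Npc1-/-. With hormone genes left out of the total, Pcsk2 went from 2568 to 2915 CPM in WT but only from 2645 to 2670 CPM in Npc1-/-. On that scale Pcsk1n went from 7151 to 9400 CPM in WT and from 6382 to 8238 CPM in Npc1-/-. Pam went from 213 to 295 CPM and from 279 to 332 CPM.

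Since Npc1-/- held more barcodes of the highest tertile, the genotype values were also taken inside each tertile. Pam was at 0.34 (0.25 to 0.43), 0.12 (0.03 to 0.21) and 0.12 (0.04 to 0.21) in the lowest, middle and highest tertile on the log2 scale, against 0.25 over all β barcodes. Pcsk1n was at -0.22, -0.22 and -0.24, each further from 0 than the -0.17 over all β barcodes. Pcsk1 was at -0.23, -0.20 and -0.10, and Pcsk2 at -0.01, -0.08 and -0.17. In α barcodes, split in the same way, Pcsk2 was at -0.28, -0.31 and -0.18 and Pcsk1n at 0.17, 0.12 and 0.00. The sign of Pam, Pcsk1n, Pcsk1 and Pcsk2 in β and of Pcsk2 in α was thus the same in all 3 tertiles. The tertiles are parts of the same 2 libraries and are not repeats, and no p-value belongs to this.

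Over the barcodes of 1 class the genes were only weakly related. Spearman's rho between pairs of the 6 genes, on CPM per barcode, ran from -0.04 to 0.34 in β barcodes and from -0.09 to 0.41 in α barcodes. The highest in β was Scg5 with Cpe, at 0.34 over 1833 WT and 0.25 over 1826 Npc1-/- barcodes, and the highest in α was Pcsk1n with Scg5, at 0.41 and 0.36. Pcsk2 with its chaperone gene Scg5 was at 0.20 and 0.06 in β. Barcodes of a class share a library and differ in depth, and the counts are sparse.

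Over the sums of 6 classes in both libraries, 12 points in all, the 5 genes other than Pcsk1 went together, with Pearson's r of log2 CPM (without hormone genes) between 0.85 and 0.99, whereas Pcsk1 was at 0.51 to 0.69 with them. These points include the endothelial and stellate classes, where the 5 genes are below all their endocrine levels and Pcsk1 is below its β, δ and PP levels. The 2 libraries also share each class. Among 8920 genes the 3 most alike to Pcsk1 were Spock2 (0.99), Arpc5l (0.98) and Gm27033 (0.97). Those most alike to Pcsk2 were Celf3, Cpn1 and Zcchc18, and to Scg5 they were Pcbd1, Aplp1 and Resp18, all at 0.995 or above. Tm4sf4, Syne4 and Rundc3a were most alike to Pcsk1n, and Map2, Grtp1 and Peg3 to Cpe. Bcl11a, Gm11837 and Slc16a11 were most alike to Pam, all 3 at 0.99.

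A list of 27 other genes of peptide processing, with other convertases, carboxypeptidases, cathepsins, peptidases and genes of copper supply and granule membrane, was set beside the 6. In β barcodes 21 of the 27 had at least 5 CPM in either library. Of these, 5 were past the limit of 0.32 higher in Npc1-/- and none lower, where 7.46% of all genes were higher and 6.29% lower, and the median was 0.09. Pcsk6, a convertase of the constitutive secretory route, was at 2.97 CPM for WT against 5.93 CPM for Npc1-/-, a log2 ratio of 0.87 (0.60 to 1.16). Being under 5 CPM in WT, Pcsk6 was compared only through its Npc1-/- level and could be counted only as higher. Cpb2, a carboxypeptidase gene, was at 5.27 and 8.03 CPM and 0.49 (0.27 to 0.71). Ptprn2, which encodes a granule membrane protein, was at 56.1 and 79.3 CPM and 0.38 (0.31 to 0.45). Furin, which encodes the convertase of the Golgi, was at 13.9 and 19.4 CPM and 0.36 (0.22 to 0.50). Cpm was at 7.83 and 10.7 CPM and 0.34 (0.16 to 0.52). The intervals of Cpb2, Ptprn2, Furin and Cpm reached below the limit, and Cpb2 and Cpm were near the 5 CPM needed. In α barcodes 1 of 21 was higher and 2 lower, where 4.12% of all genes were higher and 4.58% lower. The higher gene was Pcsk6, at 4.81 CPM for WT against 6.41 CPM for Npc1-/-. Cpm, at 5.46 against 3.79 CPM, was among the lower ones. Each of these reached 5 CPM in 1 library only, so it could be counted only in the direction found. In δ barcodes 2 of 23 were higher and 4 lower, where 16.0% of all genes were higher and 15.3% lower. In PP barcodes 1 of 22 was higher and 1 lower, where 8.75% of all genes were higher and 8.91% lower.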

How the data were processed

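Single-cell suspensions of islets were run on the 10x Genomics 3′ platform (the labels name the v3 kit and the study's methods the v2 kit). What the authors deposited is a table of UMI counts with genes as rows and barcodes as columns. The submitters' processing notes name Cell Ranger 3.1.0, Seurat 4.0.3 and the mm10 build. The deposited counts are not normalized and hold the barcodes that Cell Ranger called cells. Files of features and barcodes gave names only.

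Following the limits of the study's methods, a barcode was kept when it had over 1000 genes, fewer than 50000 UMIs, a mitochondrial share below 10% and a haemoglobin share no higher than 0.1%. The study also removed doublets. Here no doublet caller was used, and leaving out the highest Scrublet scores was an alternative. Endothelial and stellate barcodes had a leading hormone under 10% and at least 3 detected markers of their best-scoring list. UMIs were summed by library and class and given as CPM with exact Poisson intervals, shares with Clopper-Pearson intervals and ratios with conditional binomial intervals. For the log2 ratios 0.5 counts were added to each sum. The intervals, and Pcsk1 in percent of Pcsk2, used the counts with nothing added. The method was tested on simulated counts. With 1 library per genotype there is no replicate check, and members of a class are not replicates. UMIs are 3′ counts, so levels were not compared between genes except as a ratio compared between classes.

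The named genes were the 6 members, those of the list of 27 past the fold in β barcodes and, for each member, the 3 genes with the highest Pearson correlation of log2(CPM without hormone genes + 1) among genes of at least 20 CPM. Members and lists were chosen with earlier results of these data known. Analyses used Python 3.11.15, numpy 2.4.6, scipy 1.17.1, scanpy 1.11.5 and, for TMM factors only, edgeR 4.0.16.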

Additional observations from a re-analysis of the deposited data

Results flagged for a closer look

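The Npc1-/- over WT log2 ratios of 3 genes had opposite signs in different classes, each with an interval on its own side of 0. Pcsk1n was at -0.17 in β but at 0.078 in α and 0.151 in δ. Scg5 was at -0.024 in β but at 0.091 in δ, and its β value was above 0 under 5 of the alternatives. Pam was at 0.25 in β but at -0.068 in α. Over the α tertiles of Ppy and Pyy share Pam was at -0.20 (-0.29 to -0.11), -0.03 (-0.12 to 0.06) and 0.03 (-0.06 to 0.12). The difference between classes was not tested, since each genotype is 1 library.

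The kept barcodes without a class entered no comparison, and in Npc1-/- they held all 6 genes above their level in the WT barcodes without a class. In the 222 Npc1-/- barcodes Pcsk1 was at 122 CPM, Pcsk2 at 1488 CPM, Pcsk1n at 5493 CPM, Scg5 at 943 CPM, Cpe at 1166 CPM and Pam at 359 CPM. In the 396 WT barcodes these were 32.9, 700.5, 1904, 365, 404 and 141 CPM. A Pcsk2 UMI was present in 77.0% of the Npc1-/- and 48.0% of the WT barcodes, at a median of 13650.5 and 5635.5 UMIs per barcode, so the makeup and depth of these barcodes differed between the libraries, and their part in the levels was not tested.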

How the results depend on the processing

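Each count of genes past the fold was recomputed under up to 12 alternatives, of which 2 were chosen after seeing the data: CPM of all UMIs not relative to the median gene, and PP barcodes with at least 5% Sst put with δ. Without the median gene, 1 gene (Pam) was past the limit between genotypes in β, 4 were past 2-fold in α over β (Pcsk1 lower, Pcsk2, Scg5 and Pam higher) and 3 in PP over β (Pcsk1 lower, Scg5 and Pam higher), because the median gene itself differs between the sums compared. With a leading hormone of at least 30%, 2 were past 2-fold in α over β, Pcsk1 and Pam. The other counts were as reported. Pcsk1 in percent of Pcsk2 in β barcodes was 21.8% in WT and 20.5% in Npc1-/- with the stricter filter (more than 2000 genes, under 5% mitochondrial). It was 19.95% and 18.1% with the looser one (more than 500 genes, under 20% mitochondrial, no upper limit on UMIs). With a second hormone group under 5% it was 21.2% and 19.5%, and without the highest Scrublet scores 21.2% and 19.3%.

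Of 276 log2 ratios between genotypes under the alternatives, 222 stayed within the counting interval of the reported value, as did 218 of 408 ratios over β, and none past the fold reversed. Of 32 values of Pcsk1 in percent of Pcsk2 in α, δ and PP barcodes 20 stayed within it, and of 48 shares of barcodes with a Pcsk1 or Pam UMI, thinned to 2500 UMIs with or without hormone genes, 6 did. The δ class left 0 and 1 barcodes with a leading hormone of at least 30% and 7 and 3 with a second hormone group under 5%, so these gave no value. No paired analysis was possible because each genotype is 1 library. Depth limits Pcsk1 outside β barcodes, with 204 and 122 UMIs in α, 273 and 127 in δ and 54 and 27 in endothelial barcodes.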
